A study of Macaca mulatta with 20 samples.

Results

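The data for 10 genes of the complement system were followed in the blood of irradiated monkeys: the activators CFD, CFP and C2, the receptors C3AR1, C5AR1 and CR1, and the regulators CD55, CD46, CD59 and SERPING1. Probes were taken where the array annotation gives one of these gene names and where the spot was well above background on at least 5 of 20 arrays. The array carries 14 probes for the 10 genes, and 10 probes of 9 genes met this rule, out of 19961 probes that met it in all. CD59 was the gene with no probe that met it.

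Rhesus macaques (Macaca mulatta) received 10 Gy of X-rays to the thorax, and whole blood was drawn before irradiation and at 2, 5 and 30 days after it. Each of these 4 groups holds 5 arrays, numbered as replicates 1 to 5. The animals were males of Chinese origin in the arm of a larger study that received no mitigator, so every group comes from animals with the same treatment, and the pre-irradiation samples are the only controls. There were no sham-irradiated animals, so that time since the first blood draw and irradiation cannot be told apart. RNA was depleted of globin transcripts and hybridized to Agilent Whole Human Genome 4X44K v2 arrays, which are built on human transcripts. For one array the RNA of a pair of animals was pooled, and the labels do not say which. The paper names this as the exception to its matched controls, so pairs below that include this array are not from a single animal.

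Complement is a set of plasma proteins and cell surface receptors that marks microbes and damaged cells for removal. It is started by antibody and C1q, by lectins, or by the alternative pathway, and all routes lead to cleavage of C3 and C5, which releases the small peptides C3a and C5a. Most plasma complement is made in the liver, while blood leukocytes carry the receptors and the membrane regulators and make some components themselves, properdin among them.

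Probe sequences are shown for 5 genes, because human probes were hybridized with macaque RNA and each value below rests on a single stretch of 60 bases. They are written 5′ to 3′ in the sense of the transcript, as the array annotation holds them. The CFP probe lies at chrX:47483683-47483742 on the minus strand of the human genome build hg19, the C3AR1 probe at chr12:8211348-8211407 on the minus strand, the CD55 probe at chr1:207510071-207510130 and the CD46 probe at chr1:207940437-207940496, both on the plus strand. For SERPING1 the probe shown is A_33_P3413987, at chr11:57367781-57367840 on the plus strand.
CFP: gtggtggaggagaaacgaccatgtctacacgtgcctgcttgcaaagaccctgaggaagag
C3AR1: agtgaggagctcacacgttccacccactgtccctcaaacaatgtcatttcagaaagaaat
CD55: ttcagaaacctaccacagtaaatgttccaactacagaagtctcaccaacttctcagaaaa
CD46: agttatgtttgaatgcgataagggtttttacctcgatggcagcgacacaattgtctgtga
SERPING1: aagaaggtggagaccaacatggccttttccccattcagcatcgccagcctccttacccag
GC content ranged from 38.3% for the CD55 probe to 55.0% for the CFP and SERPING1 probes. The other probes that met the rule lie on hg19 at chr19:863247-863306 (CFD), chr19:47824501-47824560 (C5AR1), chr1:207813016-207813075 (CR1) and chr6:31913187-31913246 (C2), all on the plus strand. The second SERPING1 probe that met the rule, A_33_P3413993, lies at chr11:57364942-57365001 and is assigned to ENST00000405496, while the other SERPING1 probes are assigned to NM_000062. The bases that differ between human and macaque at these sites were not analysed here.

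All values below are on the log2 scale of the processed signal after the 75th percentile of the array was subtracted, so that 0 is the level of the 75th percentile, and a difference of 1 is a doubling. A level compares arrays for the same probe and says nothing of one gene against another. Comparisons were made in limma and blocked on the replicate number, because the study paired its samples by animal, and a probe was called if its unadjusted p-value was under 0.005 and its FDR (Benjamini-Hochberg) under 10%. The share of spots well above background ran from 50.9% to 67.3% over the arrays, and no spot of a member probe was saturated. Each of the 5 slides held 1 array of every group, always at the same position for a group, so that position on the slide and group cannot be told apart. In whole blood, fewer cells of a type and less RNA per cell cannot be told apart either.

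No complement gene of this set was called on any day. The paper used the same cut-offs in a different program and reported far more changed genes on each day than the probes called here. The reason for that difference was not tested. At day 2, where 0.0551% of all probes tested were called, 0 of the 10 member probes were called and 2 had an unadjusted p-value under 0.05 in limma, against 14.8% of all probes. At day 5 the counts were 0 called, against 0%, and 1 with an unadjusted p-value under 0.05, against 11.4%. At day 30 they were 0 called, against 0.02%, and 3 with an unadjusted p-value under 0.05, against 17.5%. A paired test run probe by probe also called 0 of them on each day. With 10 probes, these counts are near the background. The median change of the 10 probes was 0.08 at day 2, 0.17 at day 5 and 0.10 at day 30, beside -0.02, 0.02 and 0.01 over all probes tested.

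CFD, which encodes factor D, the serine protease that cleaves factor B and so forms the alternative pathway convertase, had the largest differences of the set. It was between 2.08-fold and 2.38-fold as high as before irradiation over the 3 days, and higher in 5 of 5 pairs each time. Before irradiation the CFD levels were 5.94, 5.51, 6.08, 3.74 and 5.67 in replicates 1 to 5. At day 2 they were 6.91, 6.03, 7.69, 5.59 and 6.62, at day 5 they were 6.65, 6.35, 7.05, 5.91 and 6.25, and at day 30 they were 6.93, 6.70, 6.39, 6.39 and 6.79. Replicate 4 was the lowest array before irradiation, at day 2 and at day 5, and at day 30 it was lowest together with replicate 3 (6.39). The levels at days 2 and 5 overlapped those before irradiation, and all day 30 levels were above all pre-irradiation levels. CFD was 1 of 10 member probes whose groups did not overlap at day 30, against 2.08% of all probes. At days 2 and 5 there were 0 such member probes, against 1.55% and 0.611% of all probes.

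The CFD change was 1.18 at day 2 (SE 0.22, n = 5 pairs, 2.26-fold, adjusted p = 0.137 from limma). It was 1.05 at day 5 (SE 0.24, 2.08-fold, adjusted p = 0.288 from limma) and 1.25 at day 30 (SE 0.31, 2.38-fold, adjusted p = 0.149 from limma). The unadjusted p-value was under 0.005 on each of the 3 days, and the FDR over 10% on each. Over the 4 groups in a single fit of all arrays, CFD ranked 179 of 19961 probes (adjusted p = 0.1004 from limma), just behind the 178 probes whose adjusted p-value was under 10%. Between the days after irradiation the CFD differences were at most 0.20 in size, with 95% intervals from -0.59 to 0.34 for day 5 against day 2 and from -0.65 to 0.79 for day 30 against day 2. Within the 5 slides, the arrays compared come from different replicate numbers, except for replicate 2 at day 5, which shares a slide with its pre-irradiation array. The day 2 differences within slides ran from -0.35 to 3.17 (higher on 3 of 5 slides). Those of day 5 ran from -0.17 to 2.52 (4 of 5) and those of day 30 from 0.72 to 3.05 (5 of 5). Without replicate 4, which had the low level before irradiation, the changes were 1.01, 0.77 and 0.90. With normexp background correction the day 2 change was 0.63 (adjusted p = 0.356 from limma), and with the slide as block in place of the replicate number it kept its size with an adjusted p = 0.432 from limma, in both cases with an unadjusted p-value over 0.05. CFD was called at days 2 and 30 with the filter on all 20 arrays and with the deposited log2 values. The same held in one fit of all arrays and with an intensity trend. It was also called at day 2 without replicate 2 and at day 30 with normexp. The lowest adjusted p-value was 0.0376 at day 2 and 0.0558 at day 30 from limma. Of the 5653 to 19961 probes tested, these settings called 209 to 681 at day 2, against 11 in the main comparison. At day 30 they called 238 to 899, against 4.

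CFP, which encodes properdin, the plasma protein that stabilizes the alternative pathway convertase, was also higher in 5 of 5 pairs on each of the 3 days, with smaller differences than CFD. Its levels before irradiation were 6.84, 6.71, 7.02, 6.33 and 7.16 in replicates 1 to 5. At day 2 they were 7.47, 6.96, 8.11, 7.02 and 7.30, at day 5 they were 7.33, 6.89, 7.42, 6.49 and 7.33, and at day 30 they were 8.02, 7.27, 7.22, 7.08 and 7.25. The groups overlapped on every day, and replicate 1 stood well above the other arrays at day 30.

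The CFP change was 0.56 at day 2 (SE 0.18, 1.47-fold, adjusted p = 0.235 from limma) and 0.56 at day 30 (SE 0.21, 1.47-fold, adjusted p = 0.231 from limma). The unadjusted p-value was under 0.05 on both days. At day 5 the change was 0.28, with a 95% interval from -0.05 to 0.61 and an unadjusted p-value over 0.05. With normexp background correction the sign at day 2 turned, to -0.02 (adjusted p = 0.964 from limma), and the day 30 value was 0.34. Within slides CFP was higher on 4 of 5 slides at day 2, 4 of 5 at day 5 and 5 of 5 at day 30. Without replicate 1 the day 30 change was 0.40 (adjusted p = 0.388 from limma), and over 18 alternatives the unadjusted p-value at day 30 was over 0.05 in 6.

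**Figure D1:**
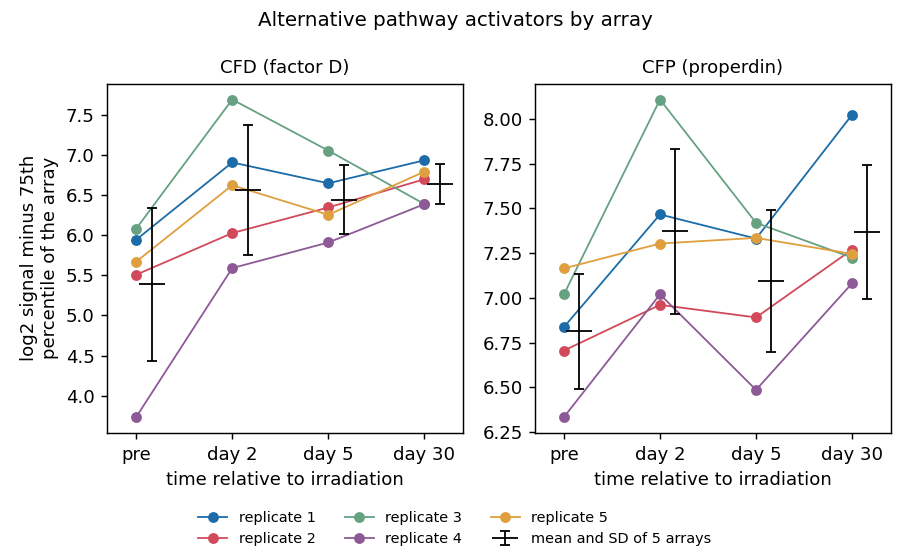
Log2 signal of CFD and CFP relative to the 75th percentile of each array (y axis) before irradiation and at 2, 5 and 30 days (x axis). Lines join arrays of one replicate number, and black bars are the mean and SD of 5 arrays. Every line lies above its own pre-irradiation value on each day, and the CFD arrays of day 30 lie between 6.39 and 6.93, above the highest pre-irradiation array at 6.08.

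Both genes followed the level of neutrophil and monocyte markers over the arrays. After subtraction of the mean of each replicate number, the level of CFP had a Pearson r of 0.938 with the summed level of 11 neutrophil markers (log2 of the sum of their signals) and of 0.824 with that of 10 monocyte markers over 20 arrays. For CFD these values were 0.812 and 0.659. The summed log2 level of the neutrophil markers, which include CSF3R, CXCR1, CXCR2 and S100A12, ranged from 7.34 to 8.81 before irradiation, from 8.28 to 9.95 at day 2, from 7.93 to 9.53 at day 5 and from 8.15 to 10.24 at day 30. For the monocyte markers, which include CD14 and CSF1R, the ranges were 6.81 to 8.32, 7.81 to 8.69, 6.93 to 8.53 and 7.82 to 8.78. Pre-irradiation replicate 4, with the lowest CFD level, also had the lowest neutrophil level (7.34) and the lowest monocyte level (6.81) of the 20 arrays, and day 30 replicate 1, with the highest CFP level of that day, had the highest of both (10.24 and 8.78).

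Of the neutrophil markers 7, 8 and 6 of 11 had an unadjusted p-value under 0.05 in limma at days 2, 5 and 30, all higher. On each day 0 of them were called, and their lowest adjusted p-values were 0.137, 0.308 and 0.139 from limma. Their median changes were 1.01, 0.63 and 0.87. Of the monocyte markers 6, 3 and 6 of 10 were higher at an unadjusted p-value under 0.05, with median changes of 0.62, 0.38 and 0.66, and 0 were called. FCGR3B, LYZ and FCGR1A, which belong to these lists, had no probe under that name. The part of cell numbers in the CFD and CFP values was not tested. Against the summed lymphocyte markers both genes ran the other way. For 10 B cell markers r was -0.771 with CFD and -0.753 with CFP over the same arrays, and for 12 T and NK cell markers it was -0.377 and -0.734. The B cell markers had median changes of -0.48, -0.54 and -0.39 at days 2, 5 and 30, with 6, 8 and 4 of them lower at an unadjusted p-value under 0.05, and the T and NK cell markers of -0.65, -0.39 and -0.21, with 9, 3 and 3 lower and 0, 0 and 2 higher.

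C2, the serine protease of the classical and lectin pathway convertases, had no unadjusted p-value under 0.05 in any comparison. Its levels ranged from -2.63 to -0.77 before irradiation (median -2.19), from -2.15 to -1.58 at day 2, from -2.77 to -1.53 at day 5 and from -2.53 to -1.73 at day 30. Pre-irradiation replicate 3 was the highest of all 20 arrays. The change was 0.08 at day 2 (95% interval -0.48 to 0.63), -0.14 at day 5 (-0.61 to 0.33) and -0.26 at day 30 (-0.82 to 0.30), with adjusted p-values of 0.899, 0.821 and 0.613 from limma. Between day 30 and day 2 the difference was -0.34 (95% interval -0.74 to 0.07, adjusted p = 0.432 from limma), lower in 5 of 5 pairs and on 5 of 5 slides. Replicate 3, whose arrays of both days share a slide, was at -1.734 at day 2 and -1.7341 at day 30. That pair and that slide were in effect level. A second C2 probe was well above background on 4 of 20 arrays and was not tested.

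C3AR1, the receptor for C3a, was lower at day 30 than at day 2 and than before irradiation, in 5 of 5 pairs each, with an unadjusted p-value under 0.05 for day 30 against day 2 only. Its levels before irradiation were 3.04, 1.94, 2.54, 2.37 and 1.96 in replicates 1 to 5. At day 2 they were 2.18, 2.76, 2.70, 2.35 and 1.91, at day 5 they were 3.24, 2.38, 2.58, 1.06 and 1.56, and at day 30 they were 2.05, 1.80, 2.46, 1.82 and 1.61. All groups overlapped, and day 5 had the widest spread (SD 0.86, n = 5).

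Against the pre-irradiation arrays the C3AR1 change was 0.01 at day 2 (SE 0.23), -0.20 at day 5 (SE 0.26) and -0.42 at day 30 (SE 0.19, 95% interval -0.86 to 0.01, adjusted p = 0.298 from limma). Within slides the day 30 change from pre-irradiation was negative on 4 of 5, from -1.24 to 0.50. Between day 30 and day 2 the difference was -0.43 (SE 0.16, 95% interval -0.82 to -0.04, adjusted p = 0.364 from limma), where 0.0551% of all probes were called and 13% had an unadjusted p-value under 0.05. Within slides the difference was negative on 5 of 5, from -0.71 to -0.09. Leaving out replicate 2 brought this difference to -0.30 (adjusted p = 0.616 from limma), and normexp background correction to -0.13 (adjusted p = 0.783 from limma). The unadjusted p-value was over 0.05 in 8 of 18 alternatives.

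C5AR1, the receptor for C5a that draws neutrophils and monocytes to sites of complement activation, had a day 2 difference that did not reach a p-value of 0.05. Its levels before irradiation were 2.23, 1.11, 2.15, 1.19 and 3.02 in replicates 1 to 5. At day 2 they were 2.25, 1.77, 3.22, 2.46 and 2.72, at day 5 they were 2.34, 2.07, 2.12, 0.84 and 1.98, and at day 30 they were 3.62, 2.08, 2.17, 1.84 and 1.86. The change was 0.54 at day 2 (SE 0.25, 95% interval -0.04 to 1.12, adjusted p = 0.369 from limma), higher in 4 of 5 pairs. It was -0.07 at day 5 (95% interval -0.69 to 0.55) and 0.38 at day 30 (-0.40 to 1.15). Replicate 5 differed from the other pairs, with the highest level before irradiation and a lower level on all 3 days, and without it the changes at days 2 and 30 were 0.75 (adjusted p = 0.289 from limma) and 0.76 (adjusted p = 0.253 from limma), with unadjusted p-values under 0.05. Without replicate 1, the highest array of that day, the day 30 change was 0.12. C5AR1 had an r of 0.597 with the neutrophil markers and of 0.607 with the monocyte markers over 20 arrays.

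CR1, the receptor for C3b and C4b that carries immune complexes on red cells and also regulates the convertases, was dim. Its probe was well above background on 18 of 20 arrays, with levels from -3.59 to -2.47 before irradiation, from -3.16 to -2.54 at day 2, from -3.50 to -1.86 at day 5 and from -3.13 to -2.39 at day 30. The changes were -0.04, -0.02 and 0.10, with 95% intervals from -0.49 to 0.41, from -0.87 to 0.83 and from -0.40 to 0.60. Day 5 replicate 3 was the highest array, 1.73 above its pre-irradiation level, and the interval of that day was the widest. Of the 20 arrays, that one also had the largest share of spots well above background (67.29%) and the lowest 75th percentile (7.234). The part of this in the CR1 value was not tested.

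**Figure D2:**
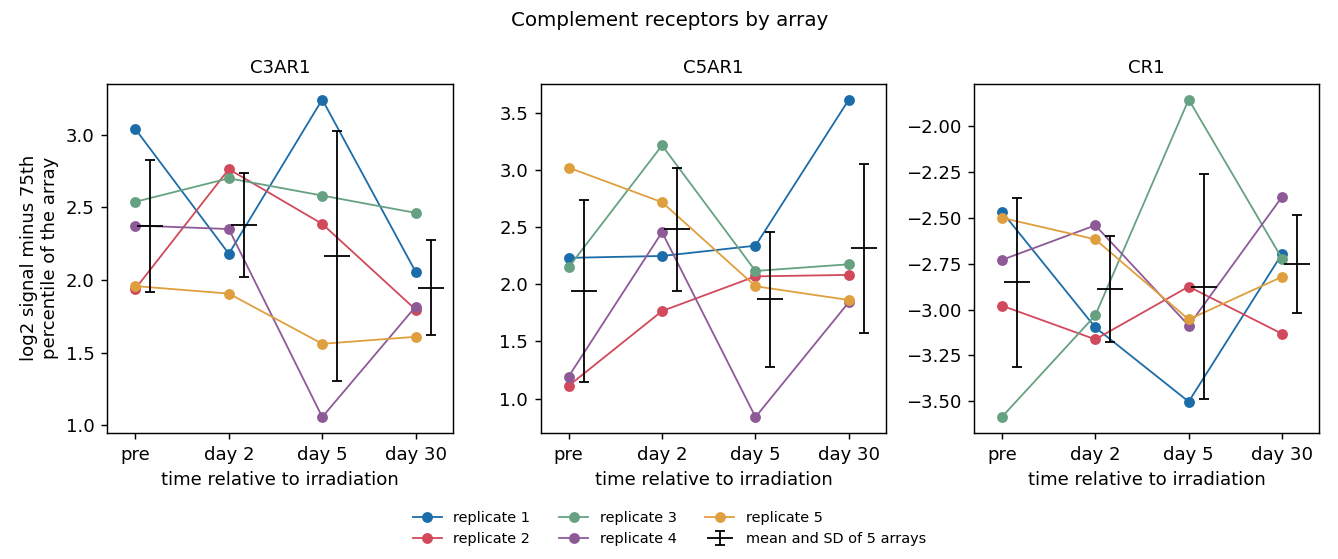
Log2 signal of C3AR1, C5AR1 and CR1 relative to the 75th percentile of each array (y axis) in the 4 groups (x axis). Lines join arrays of one replicate number, and black bars are the mean and SD of 5 arrays. The C3AR1 lines end below their day 2 values in all 5 replicates, the C5AR1 level of 3.62 in day 30 replicate 1 stands above the other arrays of that day, and the CR1 groups overlap throughout.

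The membrane regulators protect host cells. CD55 speeds the decay of convertases and CD46 is a cofactor for the cleavage of C3b and C4b. CD55 levels before irradiation were 0.91, 1.31, 1.08, 1.16 and 1.26 in replicates 1 to 5, at day 2 they were 1.66, 1.69, 1.64, 1.16 and 1.33, and at day 5 they were 1.24, 1.32, 1.48, 1.23 and 1.95. At day 30 they were 2.18, 0.75, 1.55, 1.27 and 0.65, with an SD of 0.63 against 0.16 before irradiation (n = 5 each). The CD55 change was 0.35 at day 2 (95% interval -0.04 to 0.74, adjusted p = 0.375 from limma), 0.30 at day 5 (-0.07 to 0.67, adjusted p = 0.522 from limma, higher in 5 of 5 pairs) and 0.13 at day 30 (-0.52 to 0.79). Without replicate 1, the highest array of that day, the day 30 value was -0.15.

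CD46 levels ranged from -0.02 to 0.99 before irradiation, from 0.34 to 1.34 at day 2, from 0.45 to 1.20 at day 5 and from 0.16 to 1.21 at day 30. The changes were 0.09 (95% interval -0.32 to 0.50), 0.19 (-0.16 to 0.55) and 0.09 (-0.42 to 0.60), with adjusted p-values of 0.848, 0.651 and 0.864 from limma. CD59, which blocks the last step of the membrane attack complex, was well above background on 1 of 20 arrays, a pre-irradiation array, and gives no comparison.

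SERPING1 encodes the C1 inhibitor, which inactivates C1r and C1s, and is known as an interferon-responsive gene. Its probes did not give the same picture. Probe A_33_P3413987, whose sequence is given above, had levels from -2.88 to -2.41 before irradiation, from -3.03 to -2.56 at day 2, from -2.83 to -1.57 at day 5 and from -2.84 to -2.51 at day 30. Its changes were -0.14, 0.14 and -0.01, and the 95% interval at day 30 ran from -0.41 to 0.39. Its level of -1.57 was that of day 5 replicate 3, the array with the largest share of spots well above background (67.29%).

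Probe A_33_P3413993 had levels of -1.67, -1.38, -1.43, -1.46 and -2.22 before irradiation and of -2.26, -3.02, -0.78, -2.69 and -3.00 at day 30, in replicates 1 to 5. All but replicate 3 were lower at day 30. Its change was 0.07 at day 2 (SE 0.21), 0.21 at day 5 (SE 0.33) and -0.72 at day 30 (SE 0.31, 95% interval -1.42 to -0.01, adjusted p = 0.275 from limma). Between day 30 and day 5 the difference was -0.92 (SE 0.40, adjusted p = 0.595 from limma), where 0% of all probes were called and 8.31% had an unadjusted p-value under 0.05. Normexp background correction gave -0.11 at day 30 (adjusted p = 0.712 from limma), and without replicate 3 the value was -1.06. Over 18 alternatives the unadjusted p-value was over 0.05 in 12 at day 30 against pre-irradiation, and in 11 for day 30 against day 5.

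Over the 20 arrays the probes had an r of -0.098 with each other. Probe A_33_P3413993 followed the summed level of 8 erythroid markers, with an r of 0.879, and A_33_P3413987 had an r of 0.202 with it. The erythroid markers had median changes of -0.09, 0.12 and -0.74 at days 2, 5 and 30, with an unadjusted p-value under 0.05 for 0, 1 and 2 of 8. The summed erythroid level ranged from 10.46 to 10.72 before irradiation and from 8.93 to 11.37 at day 30. Day 30 replicate 3, the array on which A_33_P3413993 was high, had an erythroid level of 11.37, the highest of that day. Day 30 replicates 2 and 5, on which the probe was lowest, had the lowest erythroid levels of that day. The part of red cell RNA in these values was not tested. With the summed level of 16 interferon response markers, r was -0.039 for A_33_P3413987 and -0.167 for A_33_P3413993. These markers had median changes of 1.20, 0.24 and 0.39, of which 1, 0 and 1 had an unadjusted p-value under 0.05 in limma. The other SERPING1 probes were well above background on 2 and on 4 of 20 arrays.

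**Figure D3:**
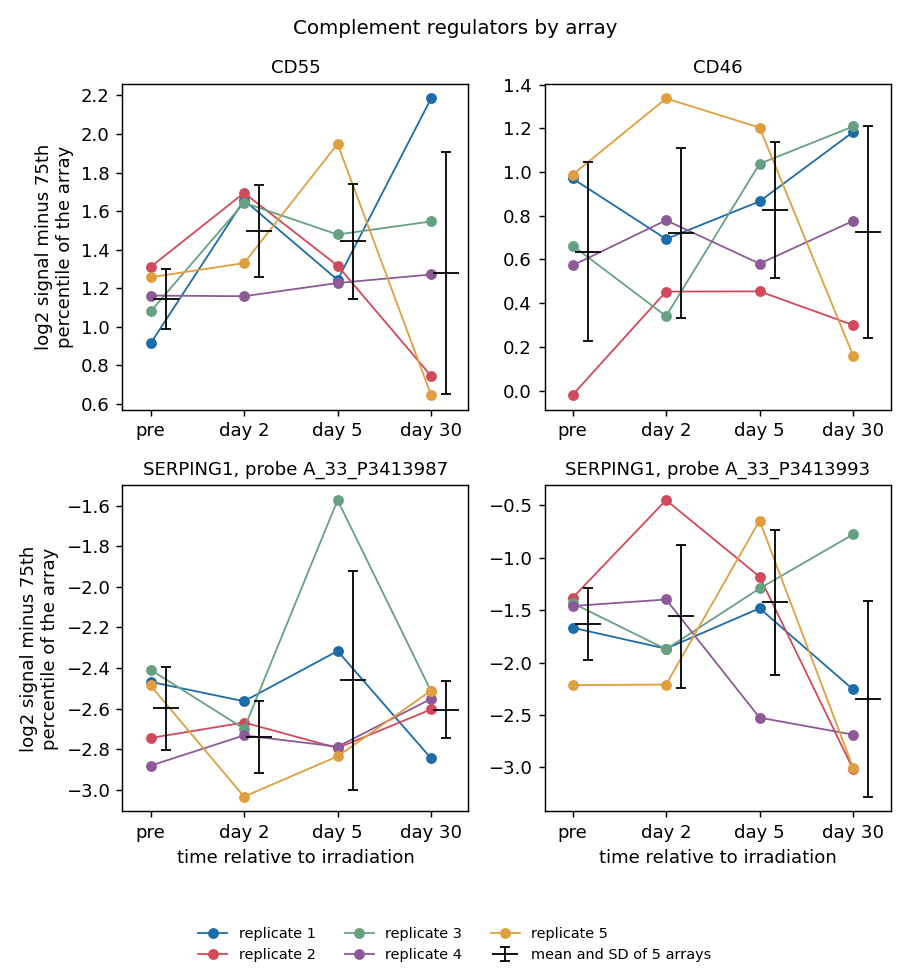
Log2 signal of CD55, CD46 and both tested SERPING1 probes relative to the 75th percentile of each array (y axis) in the 4 groups (x axis). Lines join arrays of one replicate number, and black bars are the mean and SD of 5 arrays. CD55 spreads from 0.65 to 2.18 at day 30, and the SERPING1 probes differ at day 30, where A_33_P3413993 falls between -3.02 and -0.78 and A_33_P3413987 between -2.84 and -2.51.

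Across the set, the 95% intervals of the changes excluded 0 for CFD on all 3 days and for CFP at days 2 and 30. They also excluded 0 for SERPING1 probe A_33_P3413993 at day 30. Of 18 alternatives, the unadjusted p-value under 0.05 was lost in 12 for the SERPING1 probe and in 6 for CFP at day 30. At day 2 it was lost in 2 for CFD and in 2 for CFP, whose sign turned in 1 more. For the C2, CR1 and CD46 probes the intervals lay within -0.87 and 0.83 on all 3 days. Between day 5 and day 2, where 0% of all probes were called and 3.47% had an unadjusted p-value under 0.05, 0 of the 10 member probes were called and 0 had an unadjusted p-value under 0.05 in limma. The widest difference there was that of C5AR1, at -0.61 (95% interval -1.29 to 0.07, adjusted p = 0.992 from limma).

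**Figure D4:**
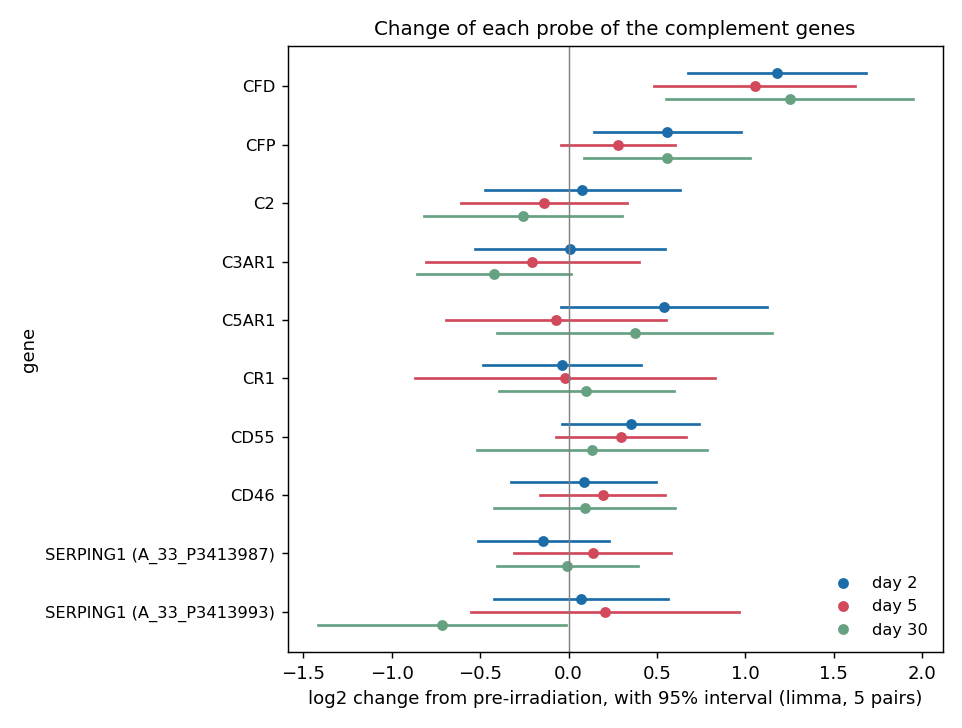
Log2 change from pre-irradiation (x axis) of the 10 probes of 9 genes (y axis) at 2, 5 and 30 days, as points with 95% intervals from limma on 5 pairs. The CFD points lie between 1.05 and 1.25 with intervals that exclude 0, the CFP points between 0.28 and 0.56, and the day 30 points of C3AR1 (-0.42) and of SERPING1 probe A_33_P3413993 (-0.72) lie below 0.

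For each gene the most similar patterns on the array were searched among 15913 genes with 1 probe each, by Pearson r over 20 arrays after subtraction of the mean of each replicate number. They are given as a description, since arrays of one animal and of one day share their blood composition. CFP was most like RASGRP4 (r = 0.963), RXRA (0.958) and ADCY4 (0.955), and CFD was most like TLR6 (0.933), NPAP1 (0.932) and TCIRG1 (0.926). CFD and CFP had an r of 0.738 with each other, and C5AR1 and CFP of 0.736. SERPING1, by its brighter probe A_33_P3413993, was most like NOC4L (0.979), STX17 (0.976) and CATSPERD (0.976). C3AR1 was most like ACTR3BP5 (0.930), CES1 (0.909) and FAM177B (0.896), with an r of -0.245 with the neutrophil markers and -0.140 with the monocyte markers. C5AR1 was most like GPD2 (0.869), DGCR11 (0.844) and TTYH3 (0.832), CR1 was most like CCL19 (0.815), PPP1R26 (0.807) and TSTD3 (0.787), and C2 was most like C1orf194 (0.818), MT2A (0.817) and LGALS3BP (0.816). For CD55 and CD46 the highest values were 0.867, with ZNF24, and 0.902, with the transcript ENST00000445384.

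Of 46 other complement genes, 27 had a probe that met the same rule. At day 2, 10 of the 27 were higher and 2 lower with an unadjusted p-value under 0.05 in limma, against 8.91% and 5.92% of all probes. At day 5 the counts were 7 and 0, against 7.2% and 4.15%, and at day 30 they were 6 and 1, against 8.58% and 8.97%. The 3 chains of C1q, which starts the classical pathway, were called at day 2, where 0.0551% of all probes were called. They were the only ones of the 27 called against pre-irradiation on any day. C1QA rose by 2.92 and C1QB by 2.52 at day 2 (adjusted p = 0.0581 from limma for each), and C1QC was well above background on 0 of 5 pre-irradiation arrays and 3 of 5 at day 2. C1QC thus met the rule only through arrays taken after irradiation, and it is counted among the genes called and higher at day 2. Others, such as C5AR2 (well above background on 2 of 5 pre-irradiation arrays), also needed later arrays to meet the rule. The gene list was chosen with earlier results of these data known. The counts set beside the shares of all probes are therefore a description and not a test.

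Among the receptors, C5AR2, the second receptor for C5a, was higher in 5 of 5 pairs at days 2 and 5 and in 4 of 5 at day 30. Its changes were 0.99 (adjusted p = 0.137), 1.02 (adjusted p = 0.281) and 0.81 (adjusted p = 0.247) from limma. Its probe was well above background on 2 of 5 pre-irradiation arrays and on at least 4 of 5 on each day. VSIG4, a macrophage receptor for C3b, had changes of 1.45, 1.05 and 1.26, with a probe well above background on 3 of 5 pre-irradiation arrays. ITGAM, the CD11b chain of complement receptor CR3, had changes of 0.92 at day 2 and 1.04 at day 30, and ITGB2, its partner chain, of 0.50 at day 30. CR2, the B cell receptor for C3d, had a change of -0.63 at day 2, lower in 5 of 5 pairs, beside B cell markers of which 6 of 10 were lower at an unadjusted p-value under 0.05.

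Among the genes listed here as regulators, THBD (thrombomodulin) had changes of 1.40, 0.88 and 1.30 and CD93 of 1.11 at day 2 and 0.87 at day 30. At day 2 the adjusted p-values were 0.114 for THBD and 0.182 for CD93 from limma. CLU, the platelet and plasma protein clusterin, had changes of 1.29 at day 2, higher in 5 of 5 pairs, and -0.50 at day 30, lower in 5 of 5 pairs. CLU is itself 1 of the 11 platelet markers. The other 10 had median changes of 1.48 at day 2, 0.44 at day 5 and -0.02 at day 30, and an unadjusted p-value under 0.05 for 10 higher, 3 higher and 1 lower of them. Their part in the CLU values was not tested. C1S had a change of 1.39 and FCN2 of -1.12 at day 2, and C5 of 1.05 at day 5. The C1S and C5 probes were well above background on 3 of 5 pre-irradiation arrays, and the FCN2 probe on 4 of 5 of them and on 3 of 5 at day 2. The remaining genes with a tested probe, among them C3, C1R, CFI by its main probe and C4BPA, had no unadjusted p-value under 0.05 in limma on any day. The main CFI probe had a change of -0.41 at day 2, lower in 5 of 5 pairs. A second CFI probe had -0.56 at day 2, with an unadjusted p-value under 0.05 in limma. It was well above background on 3 of 5 pre-irradiation arrays and on 1 of 5 at day 2.

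**Figure D5:**
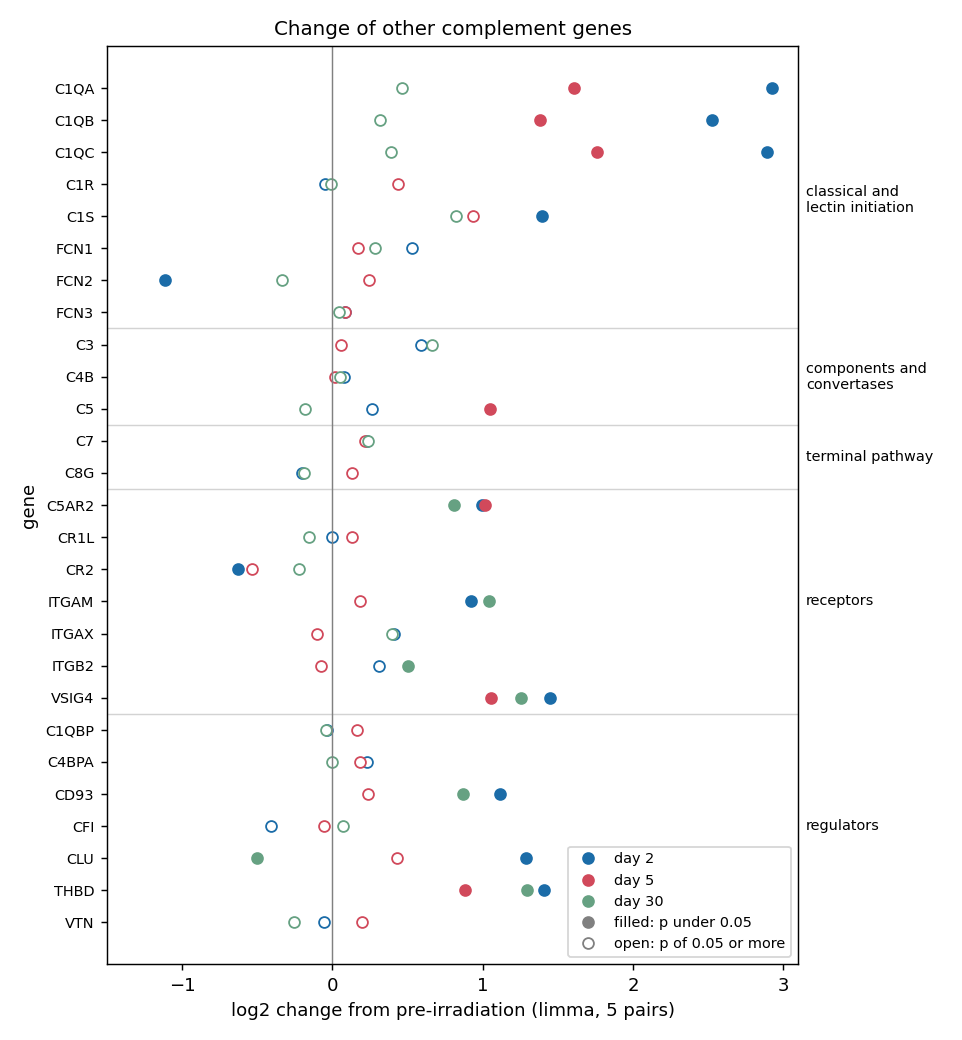
Log2 change from pre-irradiation (x axis) of 27 other complement genes (y axis), grouped by listed role, at 2, 5 and 30 days. Filled points have an unadjusted p-value under 0.05 in limma on 5 pairs, and the C1QC points are fitted values against arrays not well above background. The C1q chains lie furthest to the right at day 2, and THBD, VSIG4 and C5AR2 have filled points on all 3 days.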

How the data were processed

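The study's 20 one-color arrays (5 per group) were analysed from the Feature Extraction output (version 12.0.2.2 per the file headers, 10.7 in the submitters' processing notes). The authors deposited processed signal intensity, background subtracted and not normalized between arrays, and a table of log2 values for 5885 rows, which was used as an alternative only. Control and outlier spots were left out, log2 values were averaged over the spots of 1 probe, and each array was set relative to its 75th percentile. Probes well above background on at least 5 of 20 arrays were tested with limma 3.58.1 (R 4.3.3) on the arrays of the groups compared, blocked on the replicate number, and p-values were adjusted over all of them. The study states pairing by animal. Deviations of arrays of the same number correlated by 0.042 to 0.654 between each day and pre-irradiation and by -0.162 to 0.485 between days. From day 30 to pre-irradiation, replicates 1, 4 and 5 correlated by 0.175, 0.065 and 0.042 with their own number. With another number they reached 0.322, 0.101 and 0.189. Replicates 2 and 3 correlated more with their own number (0.415 and 0.434). Spread between arrays is all that the p-values measure. Precision is limited by the number of arrays.

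The members and gene lists were chosen with earlier results of these data known. Named were all members, other complement genes with an unadjusted p-value under 0.05 on a day, the 3 genes most like each member, and markers beside a result. Where a gene had several probes, the one with the highest mean signal stands for it in counts and likeness. Marker levels are log2 sums of signal over 7 lists. All 10 member symbols occur among the macaque gene names. Alternatives were quantile and median scaling, normexp (offset 50), no filter or a filter on all 20 arrays, the deposited log2 values, outlier spots kept, no block, the slide as block, all arrays in one fit with and without the slide, an intensity trend, a paired test probe by probe, and each replicate left out. One other complement gene of the list is not reported here.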

Additional observations from a re-analysis of the deposited data

Results flagged for a closer look

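In 5 of 40 sets of 5 arrays (10 probes in 4 groups), 1 array lay far from the other 4. The rule flags about 1 set in 20 where sets are independent. These sets share the same arrays, and several flags fall on day 30 replicate 1, so the count cannot be set against that rate. CFD in pre-irradiation replicate 4 was at 3.74, with the other arrays between 5.51 and 6.08. C5AR1 in day 5 replicate 4 was at 0.84, with the others between 1.98 and 2.34. In day 30 replicate 1, C5AR1 was at 3.62 (others 1.84 to 2.17), CFP at 8.02 (others 7.08 to 7.27) and SERPING1 probe A_33_P3413987 at -2.84 (others -2.60 to -2.51). That array had the highest summed neutrophil level of its day, 10.24, and the part of this in the values was not tested.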

How the results depend on the processing

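No member was called in the main comparisons. At day 2 the count was 1 with the filter on all 20 arrays, with the deposited log2 values, in one fit of all 20 arrays and with an intensity trend, and 0 to 1 with a replicate left out. At day 30 it was 1 under the same 4 settings and with normexp, and 0 with a replicate left out. The probe was CFD each time. These settings also called more of all probes. At day 2 the filter on all 20 arrays called 209 of 15339 and the deposited values 327 of 5653. Of 19961 probes, one fit of all arrays called 368, the intensity trend 218 and leaving out replicate 2 called 681. At day 30 the same 4 settings called 651 of 15339, 334 of 5653, 238 of 19961 and 404 of 19961, and normexp called 899 of 19961.

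Of member probes with an unadjusted p-value under 0.05, the count at day 2 (2) became 0 with normexp, 1 with the slide as block and 1 to 3 with a replicate left out, and that at day 5 (1) became 2 in the paired test probe by probe. At day 30 (3) it was 1 to 3 with a replicate left out. Between days 5 and 2 (0) it was 1 with median scaling and with the slide as block, and 0 to 1 with a replicate left out. Between days 30 and 2 (1) it was 0 with the deposited log2 values, in one fit of all 20 arrays, and in that fit with the slide, and 0 to 2 with a replicate left out. Between days 30 and 5 (1) it was 0 with quantile or median scaling, normexp, no filter, the slide as block, all 20 arrays with the slide and the paired test probe by probe, and 0 to 1 with a replicate left out. Without the replicate block it was 0 in both comparisons of day 30 with an earlier day, no member was called, and no other count moved by over 1.5 times. CFP at day 2 reversed with normexp (-0.0198). The causes were not tested.

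Median scaling shifted the median of all probes to -0.11 at day 5 and normexp to 0.12 at day 2 and 0.11 at day 30. Of 948 alternative values of single members, 823 kept their direction and their side of an unadjusted p-value of 0.05. The sign turned in 66, of which 65 belong to changes with an unadjusted p-value over 0.05, and the other is that of CFP. Dim probes such as those of CR1, C2 and SERPING1 limit what can be seen for these genes.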
